A study of Homo sapiens with 10 samples.

Results

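The type I interferon response genes described here are 54 genes listed by symbol for their known induction by interferon. The rule used no measured value, but the list was drawn up with earlier results of these data known. Of these, 53 were present in both gene count tables, which held 18262 genes in common, and 49 had more than 2 CPM (read counts scaled to the size of the library) in at least 2 of the 6 RNA-seq libraries. IFI27 was not analysed here, and IRF7, RSAD2, RTP4 and IFI16 did not reach that level. The RNA came from T47D, a hormone receptor-positive luminal breast cancer cell line, 72 h after transfection with control siRNA, siRNA against TRPS1 or siRNA against CHD4, in 2 libraries each. TRPS1 is an atypical GATA-type zinc finger repressor and CHD4 is the ATPase of the NuRD nucleosome remodelling complex. TRPS1 binding was measured separately by ChIP-seq in the same cell line, and its peak list was used for the positions of binding. Per the labels all 6 RNA-seq libraries received siRNA with the same transfection reagent, while the RNA-seq methods of the study name shRNA for CHD4. No untransfected cells are among the samples analysed here, and the sources do not say which siRNA sequence entered which library or whether replicates were separate cultures. The p-values therefore measure the spread between these libraries only.

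Type I interferons signal through the IFNAR1 and IFNAR2 receptor chains and the kinases JAK1 and TYK2 to the ISGF3 complex, which contains STAT2 and IRF9. ISGF3 binds the interferon-stimulated response element (ISRE) in the promoters of a large set of genes whose products sense and degrade viral RNA, block translation and restrict virus entry and assembly. Double-stranded RNA, sensed by DDX58 (RIG-I), IFIH1 (MDA5) and the OAS enzymes, is a well-known trigger of the pathway.

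The libraries held 10333138 to 14668358 counts, so that 3 counts corresponded to 0.197 to 0.288 CPM. Levels are CPM scaled with TMM factors over the 6 libraries, are not corrected for gene length, and are given for replicate 1 and then replicate 2 of a group. Control replicate 1 stood apart from the other libraries, with correlations of log2 CPM across genes of 0.873 to 0.893 against 0.946 to 0.977 among the remaining 5. TRPS1 was at 1446 and 2271 CPM in the control libraries, 1165 and 722 CPM with TRPS1 siRNA and 2449 and 1587 CPM with CHD4 siRNA. CHD4 was at 301 and 286 CPM in the control libraries, 302 and 268 CPM with TRPS1 siRNA and 95.7 and 54.3 CPM with CHD4 siRNA. Each siRNA thus lowered its own target below both controls, and the remaining target transcript was lower in replicate 2 than in replicate 1 of both knockdowns. Of 8 luminal epithelial markers all were above 3 counts, with summed levels of 5128 to 14455 CPM and the highest sums in the controls. The summed level of 3 basal markers was at most 1.05 CPM and that of 5 immune markers 0.830 to 3.61 CPM. The defining immune marker PTPRC was at 0 in 5 libraries, and 0.241 CPM in the other. CD14 ranged from 0.288 to 2.41 CPM and was highest in the CHD4 libraries. The sum of 4 fibroblast markers was 60.9 to 156 CPM, mostly from COL1A1 at 59.2 to 156 CPM. That of 3 endothelial markers was at most 1.40 CPM.

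The interferon response genes divided the replicates of each knockdown, and did so in the same direction in both. In cells with TRPS1 siRNA all 49 genes were lower in replicate 1 than in replicate 2, with a median difference of -1.48 on the log2 scale, or 2.79-fold. In cells with CHD4 siRNA all 49 were again lower in replicate 1, with a median difference of -1.79, or 3.45-fold. In the controls 25 of the 49 were lower in replicate 1, and the median difference was -0.00080. Over all 13269 genes above the CPM limit, the median differences were 0.01 for TRPS1 siRNA, 0.0036 for CHD4 siRNA and -0.03 for the control, and replicate 1 was the lower library for 48.2%, 49.5% and 51.1% of genes. These differences were taken on log2(CPM + 0.5) and compare 1 library with 1 library, so they have no replicate check and no test. IFI44L and CMPK2 passed the CPM limit only through the replicate 2 knockdown libraries, so the direction of their differences was fixed by the filter. Both are kept in all counts of the 49 genes. In RNA from whole cultures, a response in fewer cells and a smaller response per cell cannot be told apart.

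**Figure D1:**
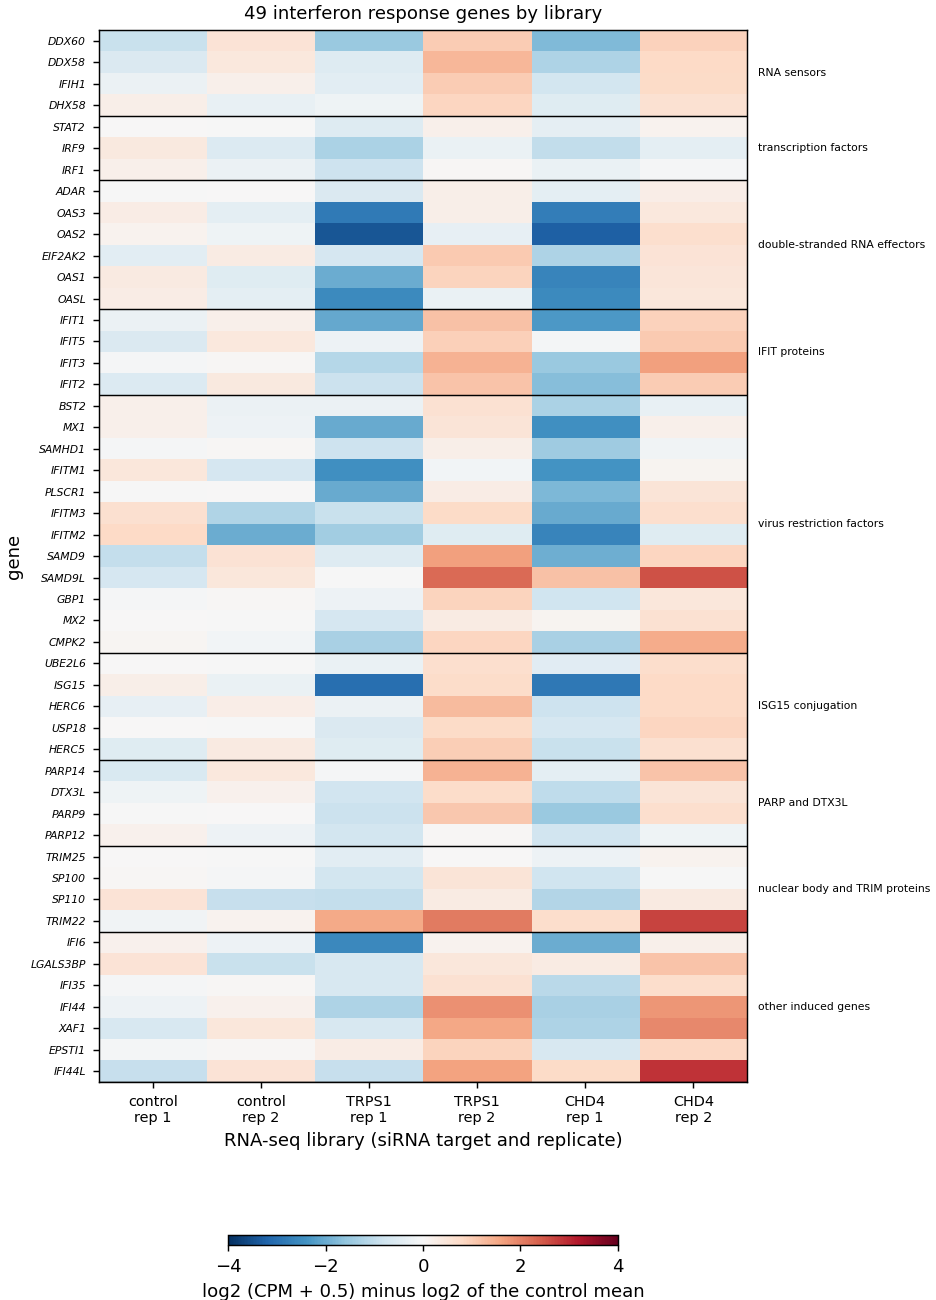
Level of 49 interferon response genes (rows, grouped by role) in the 6 libraries (columns), as log2(CPM + 0.5) minus log2 of the mean of the 2 control libraries plus 0.5. Blue columns stand at replicate 1 of both knockdowns, with medians of -0.74 and -1.18, and red columns at replicate 2 of both, with medians of 0.77 and 0.66.

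Large differences between the replicates were frequent in these genes. Replicate 1 was more than 2-fold lower for 37 of 49 genes (75.5%) with TRPS1 siRNA, against 1.71% of all genes, and for 39 of 49 (79.6%) with CHD4 siRNA, against 3.56% of all genes. In the controls it was more than 2-fold lower for 6 of the 49 (12.2%, against 17.9% of all genes) and higher for 5 (10.2%, against 15.2%). A difference of more than 2-fold in both knockdowns was found for 140 genes (1.06% of all), of which 35 were interferon response genes. This is 25.0% of the 140 genes and 71.4% of the 49. At more than 4-fold in both, 21 genes were left (0.158% of all), and 18 of these (85.7%) were interferon response genes, 36.7% of the 49. Among the other genes of the 21, named here after their values were seen, were LAMP3, a lysosomal membrane protein, and TXNIP, the thioredoxin inhibitor. In the opposite direction, 57 of all 13269 genes were more than 2-fold higher in replicate 1 of both knockdowns, and 0 of the 49 were among them. With so few among all genes, a count of 0 is near the background and says little about the 49.

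**Figure D2:**
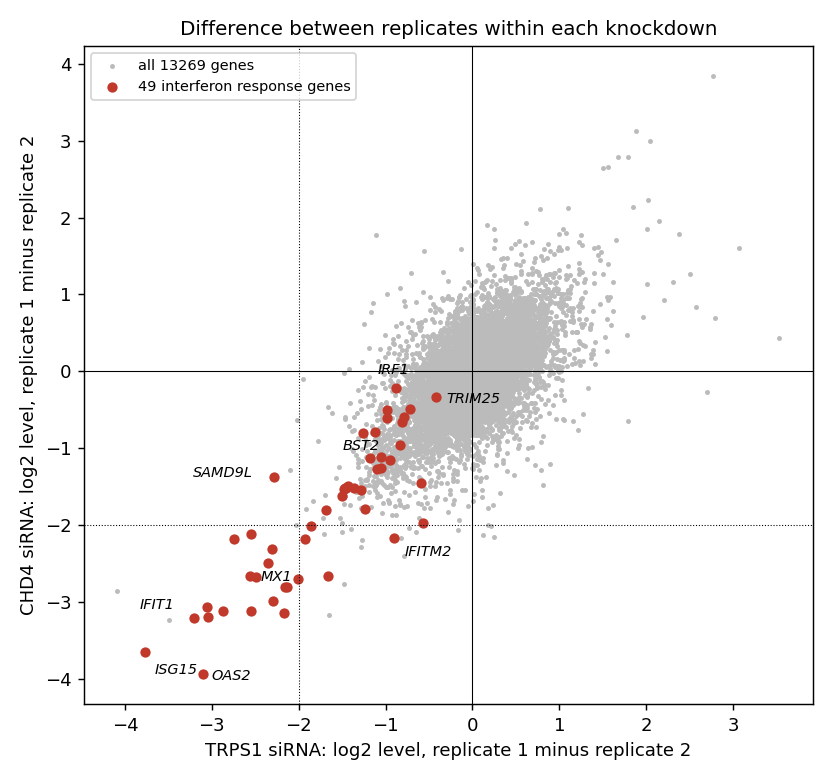
Difference between replicates (log2 CPM + 0.5 of replicate 1 minus replicate 2) with TRPS1 siRNA on the x axis and CHD4 siRNA on the y axis, for all 13269 genes (grey) and 49 interferon response genes (red). All red points lie in the lower left quadrant, and 18 lie beyond the dotted lines, which mark a 4-fold difference in each knockdown.

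The controls lay between the knockdown replicates. Relative to the control mean, the median of the 49 genes was -0.74 and -1.18 on the log2 scale in replicate 1 of TRPS1 and CHD4 siRNA and 0.77 and 0.66 in replicate 2, while the medians over all genes were between -0.04 and 0.01 in the 6 libraries. Summed over the 53 genes in both count tables, the level was 5754 and 4861 CPM in the controls, 2500 and 7239 CPM with TRPS1 siRNA and 2392 and 7067 CPM with CHD4 siRNA. For 33 of the 49, both replicate 1 knockdown libraries were below the other 4 libraries, against 9.45% of all genes. For 34 of the 49, both replicate 2 knockdown libraries were above the other 4, against 5.30%. With control replicate 1 left out, an alternative chosen after seeing the data, the replicate 1 libraries were lowest for 39 (15.0% of all genes) and the replicate 2 libraries highest for 46 (8.76%). With both controls, both orders held for 21 of the 49 and 0.558% of all genes. Within one knockdown, replicate 1 was below and replicate 2 above both controls for 24 of the 49 with TRPS1 siRNA (1.61% of all genes) and for 33 with CHD4 siRNA (2.43%). Sequencing depth also moved with the replicates, at 10333138 and 10754802 counts in replicate 1 of TRPS1 and CHD4 siRNA and 14515392 and 11640282 in replicate 2, and its part in the division was not tested. The summed luminal markers were at 6045 and 6824 CPM in replicate 1 and 5992 and 5128 CPM in replicate 2. The summed immune markers were at 1.05 and 2.98 CPM in replicate 1 and 0.984 and 3.61 CPM in replicate 2. The number of a library, the amount of remaining target transcript and any condition shared by libraries of the same number cannot be told apart here.

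Among the RNA sensors, all 4 genes were more than 2-fold lower in replicate 1 of both knockdowns. DDX58, which encodes the RIG-I helicase, was at 32.0 and 63.6 CPM in the control libraries, 33.0 and 121 CPM with TRPS1 siRNA and 20.1 and 82.6 CPM with CHD4 siRNA. IFIH1, which encodes MDA5, was at 26.5 and 35.6 CPM in the control libraries, 23.0 and 62.9 CPM with TRPS1 siRNA and 18.5 and 53.1 CPM with CHD4 siRNA. DDX60, a helicase that acts with RIG-I, was at 35.7 and 97.3 CPM in the control libraries, 23.5 and 134 CPM with TRPS1 siRNA and 19.3 and 126 CPM with CHD4 siRNA. For each of these genes the replicate 2 knockdown libraries were the highest of the 6, and replicate 1 of CHD4 siRNA was the lowest. DHX58, the LGP2 regulator of both sensors, ranged from 20.9 to 54.5 CPM with the same division.

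The double-stranded RNA effectors had the widest median division of the roles, at -2.58 for TRPS1 siRNA and -3.06 for CHD4 siRNA, with ADAR as an exception among its 6 genes. OAS3, an oligoadenylate synthetase whose product activates RNase L, was at 1227 and 762 CPM in the control libraries, 141 and 1162 CPM with TRPS1 siRNA and 144 and 1329 CPM with CHD4 siRNA. OAS2, of the same family, was at 249.7 and 203 CPM in the control libraries, 20.6 and 181 CPM with TRPS1 siRNA and 22.9 and 359 CPM with CHD4 siRNA. ADAR, the adenosine deaminase that edits double-stranded RNA, was at 851 and 879 CPM in the control libraries, 574 and 1012 CPM with TRPS1 siRNA and 662 and 1042 CPM with CHD4 siRNA. Replicate 1 of both knockdowns thus stood far below every other library for OAS2 and OAS3, with differences between replicates of -3.11 and -3.94 for OAS2 and -3.04 and -3.20 for OAS3, whereas the differences for ADAR were -0.82 and -0.65. OAS1 and OASL ranged from 8.67 to 105 CPM and from 3.26 to 29.4 CPM. EIF2AK2, which encodes the translation-blocking kinase PKR, ranged from 33.0 to 161 CPM, and all 3 were lowest in replicate 1 of a knockdown.

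The IFIT proteins bind viral RNA and block its translation. IFIT1 was at 64.2 and 85.8 CPM in the control libraries, 17.8 and 169 CPM with TRPS1 siRNA and 15.0 and 143 CPM with CHD4 siRNA. IFIT3 was at 14.5 and 15.6 CPM in the control libraries, 6.52 and 40.7 CPM with TRPS1 siRNA and 5.04 and 47.7 CPM with CHD4 siRNA. IFIT5 was at 20.9 and 41.9 CPM in the control libraries, 26.9 and 61.6 CPM with TRPS1 siRNA and 29.5 and 64.8 CPM with CHD4 siRNA. Both IFIT1 and IFIT3 were lowest in the replicate 1 knockdown libraries and highest in the replicate 2 knockdown libraries, while IFIT5 was lowest in control replicate 1. IFIT2 ranged from 1.96 to 17.0 CPM, and all 4 genes were more than 2-fold lower in replicate 1 of both knockdowns.

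Of the 12 virus restriction factors above the CPM limit, 9 were more than 2-fold lower in replicate 1 with TRPS1 siRNA and 10 with CHD4 siRNA. MX1, a dynamin-like GTPase that traps viral nucleocapsids, was at 384 and 289.6 CPM in the control libraries, 82.2 and 487 CPM with TRPS1 siRNA and 61.0 and 389.6 CPM with CHD4 siRNA. BST2, the tetherin that holds budding virions at the cell surface, was at 426 and 309.6 CPM in the control libraries, 312 and 556 CPM with TRPS1 siRNA and 154 and 298 CPM with CHD4 siRNA. SAMHD1, which depletes deoxynucleotides, was at 90.6 and 97.7 CPM in the control libraries, 53.0 and 110.4 CPM with TRPS1 siRNA and 35.0 and 84.4 CPM with CHD4 siRNA. MX1 showed the common division, while for BST2 the CHD4 libraries were below the TRPS1 library of the same number and below both controls. SAMD9L, a translation inhibitor related to SAMD9, was at 0.660 and 2.04 CPM in the control libraries, 1.34 and 8.46 CPM with TRPS1 siRNA and 3.64 and 10.3 CPM with CHD4 siRNA. Its controls held 9 and 27 counts, and all but one of the knockdown libraries were above them. The entry inhibitors IFITM1, IFITM2 and IFITM3 ranged from 7.93 to 123 CPM over the 3 genes. They are close paralogs whose reads may be split between them, and the controls themselves differed by 2.79 on the log2 scale for IFITM2 and 1.84 for IFITM3.

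ISG15 is a ubiquitin-like modifier that UBE2L6 and the HERC ligases attach to proteins and USP18 removes. ISG15 was at 55.3 and 39.0 CPM in the control libraries, 5.37 and 79.4 CPM with TRPS1 siRNA and 6.06 and 82.1 CPM with CHD4 siRNA. UBE2L6 was at 134 and 134 CPM in the control libraries, 112 and 215 CPM with TRPS1 siRNA and 97.8 and 219 CPM with CHD4 siRNA. HERC6 was at 27.2 and 41.0 CPM in the control libraries, 28.9 and 83.1 CPM with TRPS1 siRNA and 18.9 and 59.3 CPM with CHD4 siRNA. ISG15 had the widest division of any of the 49 with TRPS1 siRNA, at -3.77, and -3.65 with CHD4 siRNA, and ranked first among all 13269 genes by the smaller of its knockdown differences. The conjugating enzyme UBE2L6 had the smallest division of this role, at -0.94 and -1.16. HERC5 and USP18 ranged from 4.10 to 16.5 CPM and from 10.2 to 30.1 CPM, and both were more than 2-fold lower in replicate 1 of each knockdown.

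**Figure D3:**
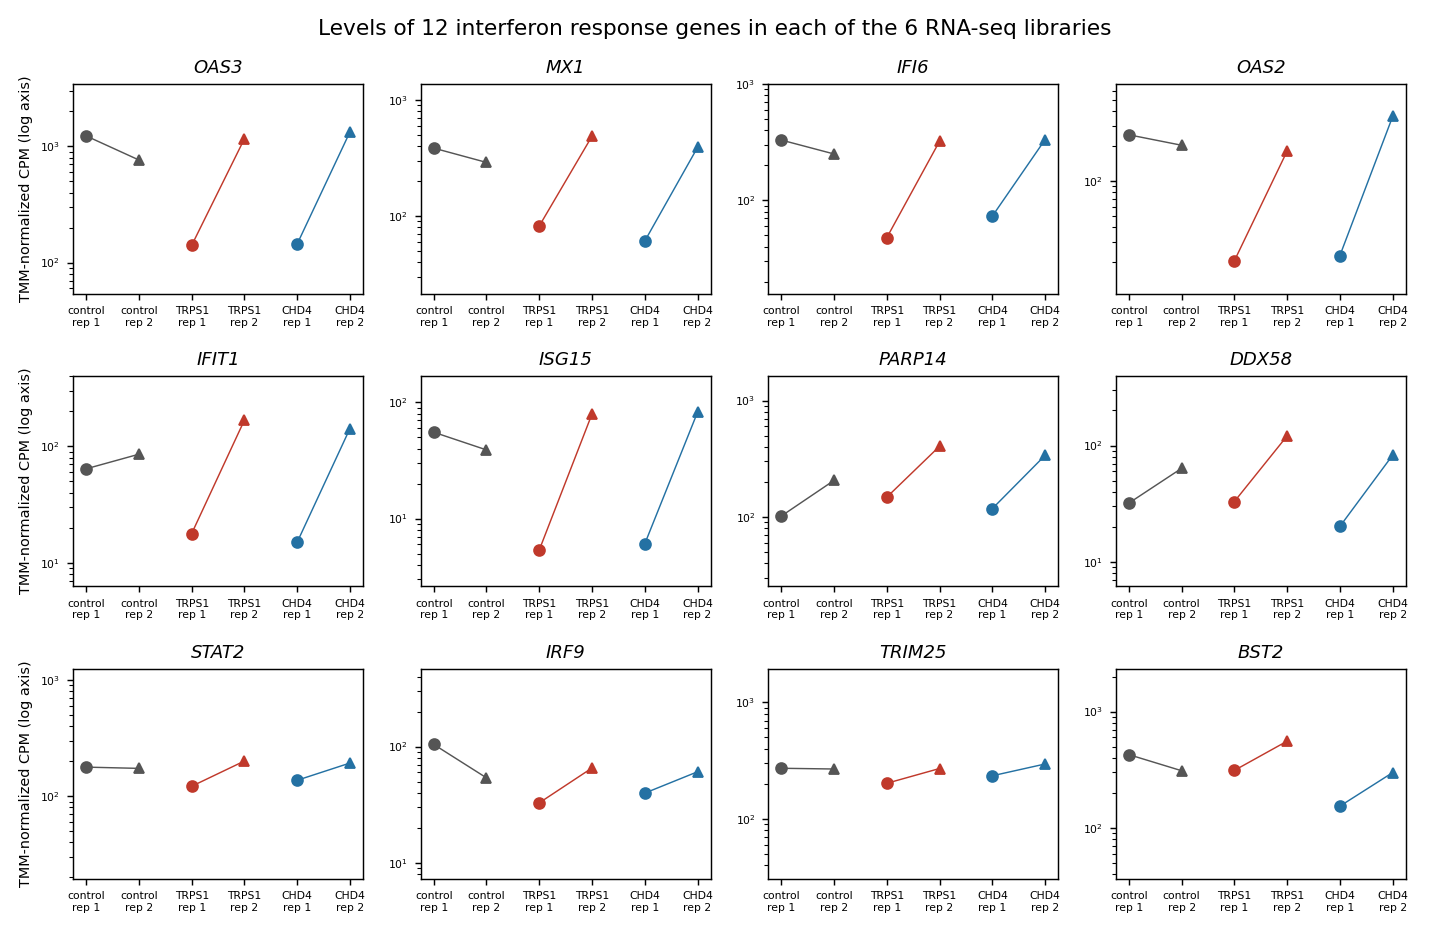
TMM-normalized CPM (log axis, with the same span in every panel) of 12 interferon response genes in the 6 libraries, with circles for replicate 1 and triangles for replicate 2 and a line joining the replicates of a group. OAS3, OAS2 and ISG15 drop to 141, 20.6 and 5.37 CPM in replicate 1 of TRPS1 siRNA, while STAT2 and TRIM25 stay between 122 and 296 CPM in all 6 libraries.

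PARP9 and DTX3L form a complex that ubiquitinates histones and viral proteins, and PARP14 is a mono-ADP-ribosyltransferase. PARP14 was at 101 and 206 CPM in the control libraries, 147 and 404 CPM with TRPS1 siRNA and 118 and 338 CPM with CHD4 siRNA. PARP9 was at 69.5 and 71.4 CPM in the control libraries, 38.7 and 149 CPM with TRPS1 siRNA and 24.6 and 114 CPM with CHD4 siRNA. DTX3L was at 116 and 146 CPM in the control libraries, 77.6 and 217 CPM with TRPS1 siRNA and 64.2 and 186 CPM with CHD4 siRNA. All 3 were highest in the replicate 2 knockdown libraries, and more than 2-fold lower in replicate 1 of both knockdowns, while PARP12 ranged from 30.5 to 58.7 CPM with differences of -0.79 and -0.60. Of the nuclear body and TRIM proteins, the RIG-I ligase TRIM25 was at 272 and 268 CPM in the control libraries, 202 and 271 CPM with TRPS1 siRNA and 234 and 296 CPM with CHD4 siRNA. SP100, a component of PML bodies, was at 23.8 and 22.7 CPM in the control libraries, 13.7 and 33.5 CPM with TRPS1 siRNA and 13.2 and 23.3 CPM with CHD4 siRNA. SP110, of the same family, was at 26.6 and 9.29 CPM in the control libraries, 9.10 and 22.9 CPM with TRPS1 siRNA and 7.65 and 23.3 CPM with CHD4 siRNA. TRIM25 had the smallest division with TRPS1 siRNA, at -0.42, and SP110 differed between the controls by 1.47. TRIM22, an antiviral ubiquitin ligase, was at 0.293 and 0.453 CPM in the control libraries, 2.01 and 3.22 CPM with TRPS1 siRNA and 0.933 and 5.13 CPM with CHD4 siRNA. These control values rest on 4 and 6 counts, and all 4 knockdown libraries were above them.

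Among the remaining induced genes, IFI6, a protein that inhibits viral replication at the endoplasmic reticulum, was at 330.4 and 251 CPM in the control libraries, 47.8 and 323 CPM with TRPS1 siRNA and 73.2 and 333 CPM with CHD4 siRNA. LGALS3BP, a secreted galectin-binding glycoprotein, was at 189 and 69.8 CPM in the control libraries, 81.8 and 179 CPM with TRPS1 siRNA and 163 and 283 CPM with CHD4 siRNA. IFI35 was at 21.6 and 23.0 CPM in the control libraries, 14.2 and 34.1 CPM with TRPS1 siRNA and 10.2 and 36.3 CPM with CHD4 siRNA. IFI6 and IFI35 were lowest in the replicate 1 knockdown libraries, while LGALS3BP was lowest in control replicate 2. XAF1, which antagonises the apoptosis inhibitor XIAP, was at 1.25 and 3.17 CPM in the control libraries, 1.25 and 7.35 CPM with TRPS1 siRNA and 0.653 and 9.70 CPM with CHD4 siRNA. IFI44, IFI44L and EPSTI1 ranged from 0 to 25.1 CPM over the 3 genes. IFI44L was at 0 in control replicate 1 and TRPS1 replicate 1 and was highest in replicate 2 of CHD4 siRNA, at 6.50 CPM. CMPK2, GBP1 and MX2 ranged from 0.466 to 6.25 CPM, PLSCR1 from 15.6 to 92.5 CPM and SAMD9 from 2.80 to 38.9 CPM. Of the genes below the CPM limit, IFI16, a nuclear DNA sensor, had 1 and 1 counts in the controls, 2 and 8 with TRPS1 siRNA and 15 and 29 with CHD4 siRNA. RSAD2 had 4 to 31 counts, IRF7 4 to 42, of which the 42 were in control replicate 1, and RTP4 0 to 9.

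The differences between replicates were smaller than the median of the 49 genes for the 3 transcription factors above the CPM limit. STAT2 was at 178 and 174 CPM in the control libraries, 122 and 201 CPM with TRPS1 siRNA and 137 and 193 CPM with CHD4 siRNA. IRF9 was at 104 and 53.8 CPM in the control libraries, 32.8 and 65.4 CPM with TRPS1 siRNA and 39.7 and 60.6 CPM with CHD4 siRNA. IRF1 was at 14.8 and 10.9 CPM in the control libraries, 7.0 and 13.3 CPM with TRPS1 siRNA and 10.5 and 12.3 CPM with CHD4 siRNA. None of the 3 differed by more than 2-fold between the replicates of a knockdown, with differences of -0.72 and -0.49 for STAT2, -0.98 and -0.60 for IRF9 and -0.88 and -0.22 for IRF1.

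The promoters of ISG15, IFIT1, OAS3 and BST2 are printed because ISG15, IFIT1 and OAS3 hold wide divisions between replicates and BST2 the clearest difference between the knockdowns. Promoters were taken from RefSeq on GRCh38.p14 and cover 250 bases before to 50 bases after the annotated start, with matches to the ISRE core (GAAA, any 2 bases, GAAA), on either strand, in capitals. ISG15 lies at chr1:1013247-1013546 on the plus strand, IFIT1 at chr10:89392373-89392672 on the plus strand, OAS3 at chr12:112938224-112938523 on the plus strand and BST2 at chr19:17405581-17405880 on the minus strand.
ISG15: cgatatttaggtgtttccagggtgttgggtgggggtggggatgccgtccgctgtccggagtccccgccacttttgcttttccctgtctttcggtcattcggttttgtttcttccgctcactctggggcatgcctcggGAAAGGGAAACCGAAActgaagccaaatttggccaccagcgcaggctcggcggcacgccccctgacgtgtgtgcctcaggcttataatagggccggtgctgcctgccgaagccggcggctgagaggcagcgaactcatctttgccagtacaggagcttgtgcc
IFIT1: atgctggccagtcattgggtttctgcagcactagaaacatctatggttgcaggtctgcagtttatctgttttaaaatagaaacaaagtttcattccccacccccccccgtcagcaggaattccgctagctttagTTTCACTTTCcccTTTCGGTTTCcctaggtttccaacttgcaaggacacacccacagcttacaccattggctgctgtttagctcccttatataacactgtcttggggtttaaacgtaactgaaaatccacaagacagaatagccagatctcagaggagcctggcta
OAS3: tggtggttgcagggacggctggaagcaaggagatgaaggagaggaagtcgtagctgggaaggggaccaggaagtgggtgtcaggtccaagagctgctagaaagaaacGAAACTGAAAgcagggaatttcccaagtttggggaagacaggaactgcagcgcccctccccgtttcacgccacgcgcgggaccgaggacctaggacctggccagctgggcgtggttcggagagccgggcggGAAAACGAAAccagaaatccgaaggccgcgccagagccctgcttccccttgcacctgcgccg
BST2: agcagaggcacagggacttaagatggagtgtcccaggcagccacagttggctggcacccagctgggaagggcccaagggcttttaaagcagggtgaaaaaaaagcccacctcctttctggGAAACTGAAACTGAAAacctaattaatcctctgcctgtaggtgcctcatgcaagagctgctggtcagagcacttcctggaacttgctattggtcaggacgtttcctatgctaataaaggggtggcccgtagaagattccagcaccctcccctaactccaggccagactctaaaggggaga
Each of the printed windows held 2 matches, which overlap in ISG15 and BST2. Of the 45 interferon response genes with a promoter entry, 28 (62.2%) held a match, against 4.38% of 27305 genes and 3.57% of 35116 promoters. The genes were listed for known induction by interferon, so a high share was built into the list. Among the genes above the CPM limit, the 25 with a match had median differences between replicates of -1.93 with TRPS1 siRNA and -2.18 with CHD4 siRNA, and the 16 without one -1.25 and -1.32. The ranges overlapped, from -3.77 to -0.59 with a match and from -2.88 to -0.42 without one for TRPS1 siRNA. In the controls the medians were -0.10 and 0.01. DDX58, entered in RefSeq as RIGI, STAT2, IRF9 and OAS1 were among the genes without a match in this window.

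The design asked whether silencing TRPS1 or CHD4 changed the level of these genes, and each fit averages over the division between replicates. Against control siRNA, 46 of the genes were tested for TRPS1 siRNA among 12921 genes, with a median log2 fold change of 0.18 (all genes -0.02), and 28 were above 0 (48.5% of all genes were). At the threshold of the study, a fold change over 2 with an unadjusted p under 0.05, 1 gene was higher (2.70% of all genes were) and 0 were lower (3.17% of all genes), and 1 had an unadjusted p under 0.05 whatever its fold (6.98% of all genes). The gene was TRIM22, at 2.79 ± 0.78 (log2 fold change ± SE, 2 libraries per group, edgeR adjusted p = 0.659). TRIM22 entered the test only through its level with TRPS1 siRNA, so it had to differ and is no support for a change of the group. The other members lay between OAS2 at -1.15 ± 0.88 and IFI44 at 1.06 ± 0.95, and no gene among the 12921 had an adjusted p under 0.05 by the edgeR quasi-likelihood test, with 902 at an unadjusted p under 0.05.

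For CHD4 siRNA against control siRNA, 45 of the genes were tested among 12918, with a median log2 fold change of -0.02 (all genes -0.02), and 20 were above 0 (48.5% of all genes were). At the same threshold 1 gene was higher (2.60% of all genes) and 0 were lower (2.85%), and 1 had an unadjusted p under 0.05 whatever its fold (5.95%). The gene was SAMD9L, at 2.37 ± 0.87 (edgeR adjusted p = 0.792), which also entered the test only through the knockdown libraries and no longer passed when all 6 libraries were fitted together. IFITM2 was the lowest, at -1.19 ± 0.97, and turned to 0.85 without control replicate 1, where it was at 91.5 CPM against 12.8 CPM in control replicate 2. Of all 12918 genes 0 had an adjusted p under 0.05 by edgeR and 769 an unadjusted p under 0.05. Both comparisons use the same control libraries. The median SE of the members was 0.66 for TRPS1 siRNA and 0.68 for CHD4 siRNA, against 0.44 and 0.47 over all genes.

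Which library was kept decided the sign of the group. Without TRPS1 replicate 2 the median log2 fold change of TRPS1 siRNA against control was -0.81, and without TRPS1 replicate 1 it was 0.73. For CHD4 siRNA the medians were -1.21 without replicate 2 and 0.67 without replicate 1. Without control replicate 1 the medians were 0.12 for TRPS1 siRNA and -0.02 for CHD4 siRNA. Without control replicate 2 they were 0.03 and 0.01. In each of these fits the lone library of a group was assumed to vary like the pair that remained.

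**Figure D4:**
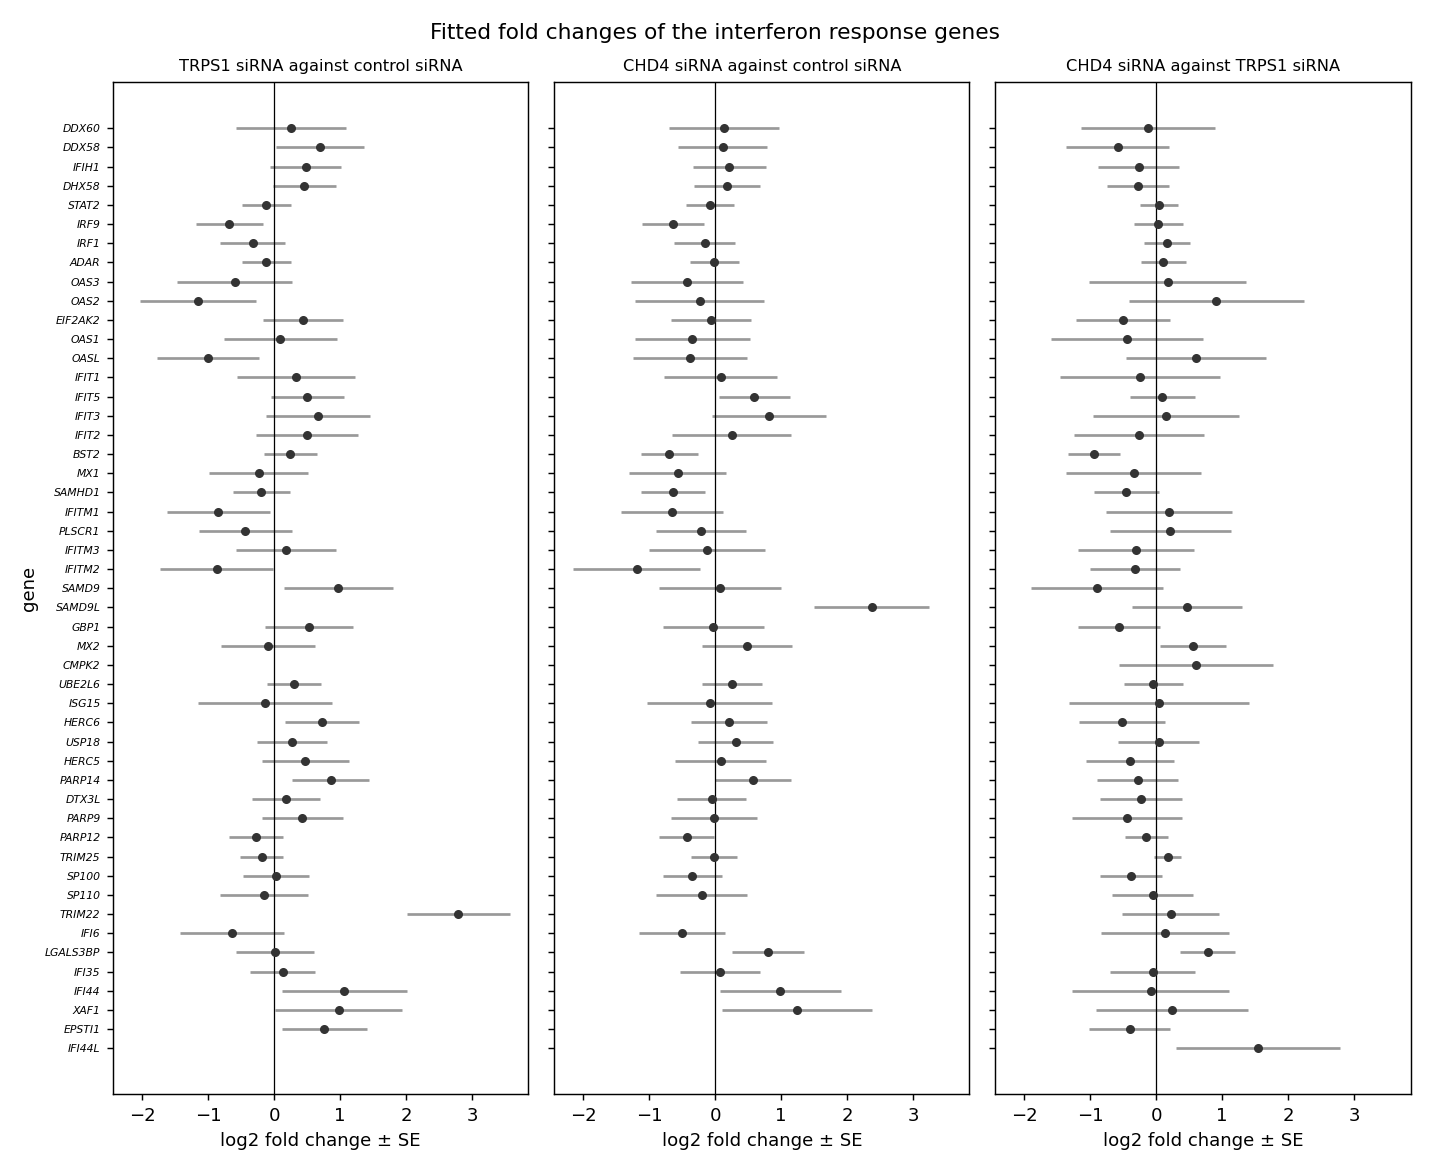
Log2 fold change ± SE (edgeR, 2 libraries per group) of the interferon response genes that passed the filter in TRPS1 siRNA against control (46 genes), CHD4 siRNA against control (45 genes) and CHD4 siRNA against TRPS1 siRNA (49 genes). The points scatter around 0 with medians of 0.18, -0.02 and -0.06, and TRIM22 at 2.79 and SAMD9L at 2.37 stand apart.

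Few of the genes had groups of libraries that did not overlap. With TRPS1 siRNA, EPSTI1 and TRIM22 were higher in both libraries than in both controls (22.5% of all genes were) and OAS2 was lower in both (21.6%). With CHD4 siRNA, MX2 and SAMD9L were higher (19.8%), and BST2 and SAMHD1 were lower (20.0%). EPSTI1 and TRIM22 passed the filter on low counts through the TRPS1 libraries alone and SAMD9L through the CHD4 libraries alone, so that their order is not independent of the filter.

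Comparing the knockdowns with each other, all 49 genes were tested among 13143, with a median log2 fold change of CHD4 siRNA over TRPS1 siRNA of -0.06 (all genes -0.0013), and 22 were above 0 (49.8% of all genes were). At the threshold 0 were higher (2.12% of all genes) and 0 were lower (1.56%). Over all genes edgeR gave 0 with an adjusted p under 0.05 and 2023 with an unadjusted p under 0.05, and 0 of the 49 were among the latter. The lowest was BST2, at -0.94 ± 0.39 (edgeR adjusted p = 0.335), the only one of the 49 whose CHD4 libraries were both below both TRPS1 libraries (24.1% of all genes), and 0 had both above (22.8%). Without TRPS1 replicate 1 BST2 was at -1.30 and without CHD4 replicate 2 at -1.48, and the weakest value with a library left out was -0.44. Replicate numbers are not balanced in these fits, so the division between replicates enters the values. Without CHD4 replicate 2 the members as a group were lowered to about the same extent. The highest was IFI44L at 1.54 ± 1.24, on 0 and 37 counts with TRPS1 siRNA and 12 and 81 with CHD4 siRNA.

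Libraries of the same number were close between the knockdowns for most genes, whether interferon response genes or not. In replicate 1, 43 of the 49 genes (87.8%) were within 2-fold, below the 94.5% of all genes. The median of CHD4 siRNA minus TRPS1 siRNA was -0.24. In replicate 2, 48 of 49 (98%) were within 2-fold, near the 96.1% of all genes, with a median of -0.06. BST2 differed in the same direction at both numbers, by -1.02 and -0.90 on the log2 scale, as did SAMD9 (-1.42 and -0.77) and DDX58 (-0.70 and -0.55). LGALS3BP (0.99 and 0.66) and IFI44L (1.70 and 1.26) were higher with CHD4 siRNA at both numbers. No other of the 49 differed by more than 0.50 in the same direction at both.

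**Figure D5:**
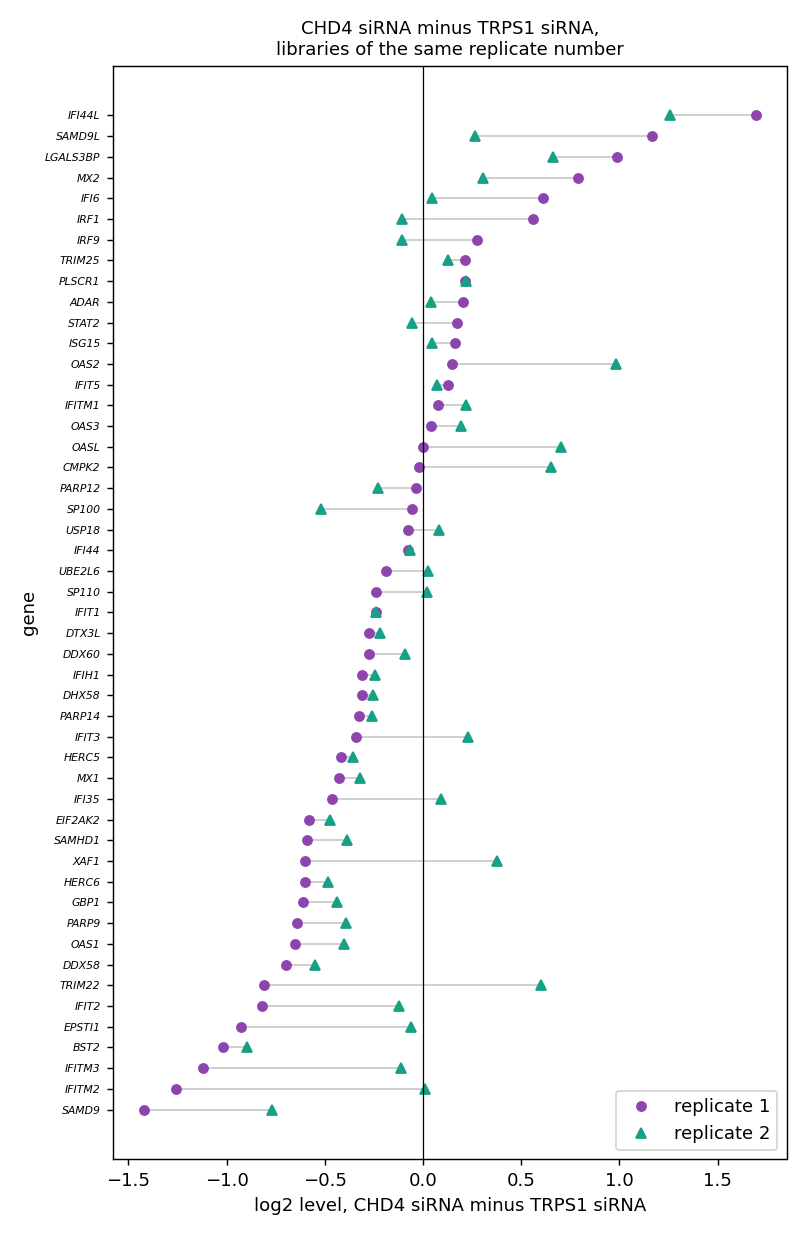
Difference of log2(CPM + 0.5) between CHD4 siRNA and TRPS1 siRNA in libraries of the same replicate number, for 49 interferon response genes (circles for replicate 1, triangles for replicate 2). Values run from -1.42 (SAMD9) to 1.70 (IFI44L) in replicate 1 and from -0.90 (BST2) to 1.26 (IFI44L) in replicate 2, with most genes near 0.

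Of 38 further genes of interferon induction and signalling, 34 were in either table. The ligand genes were at or near 0: IFNB1 had 1 count in the 6 libraries together, in TRPS1 replicate 2, and the highest level of any of the 5 ligand genes measured was 1.03 CPM, for IFNL1 in control replicate 1. The receptor chain IFNAR1 was at 48.1 and 111 CPM in the control libraries, 90.7 and 115 CPM with TRPS1 siRNA and 72.3 and 94.2 CPM with CHD4 siRNA. The other chain, IFNAR2, ranged from 8.02 to 16.2 CPM. Both chains and the kinases were thus detected in every library. Of 24 pathway genes tested for TRPS1 siRNA against control, 0 were higher (2.70% of all genes) and 1 was lower (3.17%) at the threshold. A share of 1 in 24, or 4.17%, is near that of all genes. The gene was SOCS3, the feedback inhibitor of JAK kinases, at -1.48 ± 0.58 (edgeR adjusted p = 0.659). It was at 25.2 and 9.21 CPM in the control libraries, 5.85 and 6.43 CPM with TRPS1 siRNA and 9.05 and 5.53 CPM with CHD4 siRNA. Without control replicate 1 it was at -0.57, and neither there nor with library sizes alone, at -1.34, did it pass the threshold. Its call was also lost when either TRPS1 library was left out, at -1.40 and -1.54. Of 25 tested for CHD4 siRNA, 0 were lower (2.85% of all genes) and 1 was higher (2.60%), a share of 4.0% that is again near that of all genes. The gene was TRAF3, an adaptor of interferon induction, at 1.10 ± 0.38 (edgeR adjusted p = 0.792). It was at 35.5 and 39.5 CPM in the control libraries, 63.5 and 62.7 CPM with TRPS1 siRNA and 75.9 and 83.3 CPM with CHD4 siRNA. The groups did not overlap for TRAF3 in either knockdown, though its call was lost when either CHD4 library was left out, with fold changes of 1.05 and 1.18.

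JAK1, the kinase bound to IFNAR2, was at 275 and 328 CPM in the control libraries, 159 and 190.0 CPM with TRPS1 siRNA and 161 and 162 CPM with CHD4 siRNA. All 4 knockdown libraries were below both controls, with log2 fold changes of -0.78 ± 0.32 for TRPS1 siRNA (edgeR adjusted p = 0.659) and -0.89 ± 0.35 for CHD4 siRNA (edgeR adjusted p = 0.792), both with an unadjusted p under 0.05 but under the fold limit. With library sizes alone neither had an unadjusted p under 0.05, nor did either when a library of its knockdown was left out. For TRPS1 siRNA this also held with no filter and with more than 2 CPM required in every library. JAK1, SOCS3 and TRAF3 differed by less than 2-fold between the replicates of each knockdown. Between the knockdowns, an unadjusted p under 0.05 by edgeR was found for 3 of 25 pathway genes (12%, against 15.4% of all genes), namely the adaptor MAVS at 0.50 ± 0.18, the receptor chain IFNGR1 at 0.51 ± 0.20 and the phosphatase PTPN6 at -0.83 ± 0.28, with adjusted p of 0.273, 0.306 and 0.250. MAVS was at 298 and 259 CPM in the control libraries, 228 and 179.7 CPM with TRPS1 siRNA and 308 and 265 CPM with CHD4 siRNA. IFNGR1 was at 20.7 and 28.8 CPM in the control libraries, 21.5 and 28.1 CPM with TRPS1 siRNA and 36.8 and 33.8 CPM with CHD4 siRNA. PTPN6 was at 11.7 and 10.1 CPM in the control libraries, 8.72 and 11.4 CPM with TRPS1 siRNA and 5.04 and 6.25 CPM with CHD4 siRNA. The CHD4 libraries were both above both TRPS1 libraries for 7 of the 25 (28.0%, against 22.8% of all genes), MAVS, IFNGR1, IFNLR1, IRF3, RNF125, STAT3 and TRAF3, and both below for 3 (12%, against 24.1%), PTPN6, IRF2 and TICAM1.

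The list of 1844 TRPS1 peaks on hg38 was compared with the annotated starts of the 45 interferon response genes with a RefSeq promoter entry. A peak lay within 5 kb of the start for 2 genes, STAT2 and IRF9, against 2.49% of 27305 genes. Both were also within 1 kb (1.74% of genes). Within 50 kb there were 4 (9.09% of genes), the others being IFI35 at 8392 bp and TRIM25 at 26013 bp. STAT2 and IRF9 encode subunits of ISGF3, and neither was more than 2-fold divided between replicates. Their log2 fold changes were -0.12 ± 0.37 and -0.68 ± 0.50 for TRPS1 siRNA and -0.08 ± 0.37 and -0.64 ± 0.47 for CHD4 siRNA, with edgeR adjusted p from 0.701 to 0.966. Control replicate 1, at 104 CPM, was well above the 53.8 CPM of control replicate 2 for IRF9, and without it the IRF9 values were -0.12 and -0.079. Without control replicate 2 they were -1.08 and -1.04, but the only control left was then replicate 1, which stood apart from the other libraries.

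The promoters of STAT2 and IRF9 are printed because they hold the peaks. The STAT2 gene occupies chr12:56341597-56360107 on the minus strand, its promoter window chr12:56360058-56360357, and the peak chr12:56359857-56360082, which is inside the gene, 25 bp from its start. Capitals mark the 25 bases of the STAT2 window under the peak. The IRF9 gene occupies chr14:24161265-24166565 on the plus strand and its promoter window chr14:24161015-24161314. The IRF9 peak, chr14:24161021-24161245, is 225 bp wide, ends 20 bp before the start and lies wholly in the window. Capitals in IRF9 mark the GATA-type matches (GATA with A or T before it and A or G after it) on either strand.
STAT2: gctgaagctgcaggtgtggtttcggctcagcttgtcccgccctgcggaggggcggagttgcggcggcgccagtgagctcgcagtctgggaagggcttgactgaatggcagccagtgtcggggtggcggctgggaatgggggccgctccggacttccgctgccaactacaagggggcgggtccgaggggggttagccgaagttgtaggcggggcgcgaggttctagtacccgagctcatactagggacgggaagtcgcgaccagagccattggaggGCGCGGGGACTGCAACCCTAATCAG
IRF9: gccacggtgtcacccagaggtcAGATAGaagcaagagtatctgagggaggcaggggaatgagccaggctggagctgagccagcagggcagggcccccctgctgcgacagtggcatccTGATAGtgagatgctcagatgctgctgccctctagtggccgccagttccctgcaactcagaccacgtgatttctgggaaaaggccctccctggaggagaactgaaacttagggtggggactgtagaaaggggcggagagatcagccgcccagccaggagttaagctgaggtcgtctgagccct
IRF9 held 2 GATA-type matches, both under the peak, and STAT2 held 0 in its window, which covers only the edge of its peak. Neither window held the ISRE core. A GATA-type match was in the windows of 16 of the 45 interferon response genes (35.6%), against 29.1% of all genes and 25.0% of all promoters, which is near the background. Peak heights were not given in the list, and the 2 ChIP and 2 input libraries gave a single list, so the spread between ChIP replicates is unknown.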

How the data were processed

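RNA-seq was made from 6 libraries of T47D cells 72 h after siRNA transfection, and ChIP-seq from 2 TRPS1 and 2 input libraries. The authors depleted ribosomal RNA, trimmed the reads, aligned them to hg38 and deposited raw read counts per gene symbol in 2 tables, one for each knockdown with the same controls. Per the labels HTSeq 0.9.0, BWA 0.7.12-r1039 and MACS2 2.1.1 were among the tools. The annotation and the strand setting of the counting are not given in the sources used here, and methods and labels differ on whether CHD4 was silenced by shRNA or siRNA; the labels were followed. The peak list held positions only.

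The tables were joined by gene symbol. Genes with more than 2 CPM in at least 2 of the 4 libraries of a comparison were tested with the quasi-likelihood F-test of edgeR 4.0.16 in R 4.3.3 (TMM factors, prior count 0.125, Benjamini-Hochberg adjustment over all genes tested). The threshold was that of the study. SE values were obtained from the fold change and the root of its F statistic. Levels used TMM factors over the 6 libraries, and differences between single libraries used log2(CPM + 0.5). The fits were tested on simulated data with known changes. Detection of these changes was required only at an imposed spread between libraries, not at the observed one. Depth was 10333138 to 14668358 counts, and the limits given for 3 counts cover counting error only. With 2 libraries against 2, an exact permutation test of a single gene cannot go below p = 0.3333. Values in every library are given for the 3 members of each role with the highest mean CPM, for the 5 with the widest differences between replicates of a knockdown, and for members and pathway genes with an unadjusted p under 0.05. Members, roles and lists were chosen with earlier results of these data known. Alternatives were RLE factors computed in edgeR, library sizes alone, 2 other filters, the likelihood ratio test, DESeq2 1.42.0, all 6 libraries in one fit, a replicate block and leaving out each library. Groups were taken from the sample titles. Promoters and gene positions were those of RefSeq on GRCh38.p14; of the 54 genes, 54 matched a RefSeq gene and 45 a promoter. The values of a further gene of the pathway are not reported here.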

Additional observations from a re-analysis of the deposited data

How the results depend on the processing

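The median difference between replicates of the 49 genes stayed between -1.53 and -1.48 for TRPS1 siRNA and between -1.89 and -1.78 for CHD4 siRNA under TMM factors, RLE factors and library sizes alone. With no filter on low counts, 2 members were higher for TRPS1 siRNA, and 4 were higher and 1 lower for CHD4 siRNA. For CHD4 siRNA against TRPS1 siRNA 1 was higher. An unadjusted p under 0.05 by edgeR was then found for 2 of 53 members and 1560 of 18984 genes for TRPS1 siRNA. For CHD4 siRNA it was found for 5 of 53 and 1570 of 18973, and between the knockdowns for 3 of 53 and 2538 of 19544. With more than 2 CPM required in every library, 0 members were higher in either comparison with the control. Leaving out single libraries gave 0 to 4 members higher and 0 to 10 lower for TRPS1 siRNA, with medians of -0.81 to 0.73, 0 to 2 higher and 0 to 11 lower for CHD4 siRNA, with medians of -1.21 to 0.67, and 0 to 4 higher and 0 to 19 lower between the knockdowns, with medians of -1.45 (without CHD4 replicate 2) to 0.74. The numbers of members called with a library left out rest on fits with 1 library in a group. The share of all genes called varied widely between these fits. Those numbers are therefore not set against all genes and show neither an excess nor a lack of members. Without control replicate 1, 39 members had both replicate 1 knockdown libraries lowest and 46 both replicate 2 libraries highest. Within 50 kb of a peak there were 4 members. With library sizes alone STAT2 turned to 0.017 for TRPS1 siRNA and 0.058 for CHD4 siRNA, and PTPN6 to 0.027 for TRPS1 siRNA; with no filter IFNGR1 turned to -0.018 for TRPS1 siRNA. The causes were not tested.

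Single genes changed sign when a library was left out. For TRPS1 siRNA the range was -0.22 to 0.62 for BST2, -1.68 to 1.16 for IFITM2, -0.20 to 0.27 for IFNGR1, -0.30 to 0.092 for PTPN6 and -0.51 to 0.22 for STAT2. For CHD4 siRNA it was -2.68 to 0.85 for IFITM2, -0.041 to 0.19 for MAVS, -3.27 to 0.69 for OAS2 and -0.32 to 0.16 for STAT2. Between the knockdowns it was -1.83 to 0.39 for IFITM2, -0.38 to 0.64 for IRF9, -0.24 to 0.048 for JAK1, -2.13 to 3.24 for OAS2, -0.46 to 2.40 for SAMD9L, -0.15 to 0.58 for SOCS3, -0.29 to 0.47 for STAT2 and -1.48 to 0.95 for TRIM22.

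Over all genes, adjusted p under 0.05 was reached by 0 genes in each comparison with edgeR's quasi-likelihood test, by 34, 58 and 570 with its likelihood ratio test and by 39, 50 and 456 with DESeq2 (TRPS1 siRNA, CHD4 siRNA and CHD4 against TRPS1 siRNA), with 0 members among them. Without control replicate 2 only control replicate 1 was left, so counts of genes passing in those fits are not set beside these. The labels do not say that a replicate number marks a shared day or batch. Deviations of same-numbered libraries from their group means correlated across genes at 0.07 (control and TRPS1 siRNA), 0.01 (control and CHD4 siRNA) and 0.63 (TRPS1 and CHD4 siRNA). With the replicate number as a block, 5 members were lower for TRPS1 siRNA and TRIM22 was higher, at 2.78. For CHD4 siRNA 1 was lower and SAMD9L was higher, at 2.39. Between the knockdowns 1 was higher and 1 lower. An unadjusted p under 0.05 by edgeR was then found for 6 of 46 members and 1292 of 12921 genes for TRPS1 siRNA. For CHD4 siRNA it was found for 2 of 45 and 970 of 12918. Between the knockdowns 3372 of 13143 genes and 15 of the 49 members had an adjusted p under 0.05 by edgeR, which are similar shares. BST2 had the lowest of the members (-0.95, edgeR adjusted p = 8.3e-13). A group of 2 libraries limits every comparison with 1 left out, since the lone library is assumed to vary like the others.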
